A study of Mus musculus with 9 samples.

Results

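The circadian clock genes described here are Npas2, Clock, Arntl, Per1, Per2, Per3, Cry1, Cry2, Nr1d2 and Dbp, read from RNA sequencing of mouse spleen regulatory T cells (Tregs). The list was chosen from earlier results of these same samples, so the size and direction of its members' changes are given below as a description, without p-values. All 10 symbols were found among the 23393 gene rows used, and all 10 were among the 12219 genes that passed the filter on low counts. The study sorted Tregs into 3 groups of 3 libraries. They are ST2KO, Tregs of the genotype so labelled; ST2-high, labelled as wild-type Tregs high in ST2; and ST2-low, labelled as wild-type Tregs low in ST2. ST2, encoded by Il1rl1, is the receptor for interleukin-33. The labels give no strain, sex, age, knockout allele, sort gate or treatment, and no kidney injury is named for these spleen samples. They also give no hour of collection and no animal for each replicate, so p-values measure the spread between these libraries, which may be technical.

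The mammalian clock is a transcriptional feedback loop. CLOCK, or its relative NPAS2, pairs with ARNTL (also called BMAL1) and switches on genes that carry E-boxes, among them the Per and Cry genes, whose proteins return to the nucleus and hold the pair in check. A second arm joins it: the REV-ERB receptors, one of them encoded by Nr1d2, repress Arntl, while the ROR receptors activate it through the same element, and DBP acts on D-boxes in Per genes and other outputs. The levels of these transcripts move over the day, and Per1 is in addition induced within a short time by cyclic AMP and by glucocorticoids. A difference between groups collected at different hours and a difference that belongs to the genotype or the sort therefore cannot be told apart in these libraries.

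Library totals lay between 11659659 counts (ST2KO replicate 3) and 43406680 counts (ST2KO replicate 1). Levels are in CPM, counts scaled to the library's total after TMM normalization, as mean ± SD (n = 3 each). The Treg transcription factor gene Foxp3 was at 430.2 CPM in ST2KO, 568 CPM in ST2-high and 462 CPM in ST2-low. Il1rl1 was at 67.6 ± 14.0 CPM in ST2KO, 495 ± 66.0 CPM in ST2-high and 2.62 ± 0.837 CPM in ST2-low, so the libraries labelled ST2KO held transcript of the gene, and counts per gene cannot show from which exons. Within a group, ST2-high replicate 3 stood farthest from its partners, with a chi-square per gene of 16.5 and 19.9 against at most 8.22 between any other pair of replicates. Among the members, leaving it out ended 1 call, that of Arntl between the wild-type groups. Summed myeloid and dendritic cell markers separated ST2KO from both wild-type groups, while summed B cell markers overlapped between ST2KO and ST2-low. The summed level of the 7 myeloid and dendritic cell markers found, of 8 listed, was 26.8 to 39.6 CPM in ST2KO, 109 to 112 CPM in ST2-high and 122 to 160 CPM in ST2-low. The 6 B cell markers summed to 63.5 to 79.5 CPM in ST2KO, 88.5 to 114 CPM in ST2-high and 77.6 to 115 CPM in ST2-low. The 7 Treg and T cell markers found, of 8 listed, summed to 3849 to 3969 CPM in ST2KO, 5392 to 5672 CPM in ST2-high and 4757 to 4886 CPM in ST2-low. Ctla4 was the member with the widest gap, at 786 CPM in ST2KO, 2123 CPM in ST2-high and 1996 CPM in ST2-low. Foxp3 also lay below its ST2-low level in ST2KO. Cd4 (424 CPM in ST2KO and 422 CPM in ST2-low) and Cd3e (352 and 348 CPM) were nearly level, and Il2ra, Ikzf2 and Cd3g lay above. Il2ra was at 496 CPM in ST2KO, 449 CPM in ST2-high and 402 CPM in ST2-low, Ikzf2 at 1237 CPM in ST2KO, 1430.3 CPM in ST2-high and 1059.6 CPM in ST2-low, and Cd3g at 168 CPM in ST2KO, 144 CPM in ST2-high and 128 CPM in ST2-low. Lists for neutrophils, NK cells, CD8 T cells and erythroid cells or platelets each summed to at most 20.7 CPM in any library, with Klra8 and Hba-a1 at 0 in all. Their part in the clock gene results was not tested. In such bulk samples, fewer cells of a type and less RNA per cell cannot be told apart.

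The split within the list can be set beside the promoters. Of the 10 genes, 9 had at least 1 promoter window in the RefSeq table for the mouse build GRCm38.p6, and there were 13 windows in all, each running from 250 bases before to 50 bases after an annotated start. Windows of 5 genes are printed 5′ to 3′ on the gene's strand, with matches to the motifs searched in capitals: Per1, Cry1 and Nr1d2, which were lower in ST2KO than in both wild-type groups, and Per3 and Dbp, which were higher. The windows are chr11:69098699-69098998 (plus strand) for Per1, chr10:85185005-85185304 (minus strand) for Cry1, chr14:18239057-18239356 (minus strand) for Nr1d2, chr4:151044616-151044915 (minus strand) for Per3 and chr7:45704997-45705296 (plus strand) for Dbp.
Per1: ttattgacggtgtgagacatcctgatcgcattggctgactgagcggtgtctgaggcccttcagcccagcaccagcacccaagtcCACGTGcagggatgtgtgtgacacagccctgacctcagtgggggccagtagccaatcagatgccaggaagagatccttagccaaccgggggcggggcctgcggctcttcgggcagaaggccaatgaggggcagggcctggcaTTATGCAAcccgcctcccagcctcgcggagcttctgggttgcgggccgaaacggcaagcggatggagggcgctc
Cry1: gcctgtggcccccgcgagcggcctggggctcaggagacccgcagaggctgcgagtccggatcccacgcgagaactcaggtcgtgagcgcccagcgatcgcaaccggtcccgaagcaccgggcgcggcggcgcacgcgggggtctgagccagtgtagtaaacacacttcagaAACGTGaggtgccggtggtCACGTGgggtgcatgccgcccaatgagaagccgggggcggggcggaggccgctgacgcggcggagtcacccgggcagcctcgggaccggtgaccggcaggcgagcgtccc
Nr1d2: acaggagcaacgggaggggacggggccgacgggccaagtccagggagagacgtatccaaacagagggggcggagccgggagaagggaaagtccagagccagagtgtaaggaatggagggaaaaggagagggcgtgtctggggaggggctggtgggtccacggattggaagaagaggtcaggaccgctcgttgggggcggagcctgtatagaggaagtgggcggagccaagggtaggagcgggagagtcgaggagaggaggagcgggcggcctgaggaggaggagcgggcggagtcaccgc
Per3: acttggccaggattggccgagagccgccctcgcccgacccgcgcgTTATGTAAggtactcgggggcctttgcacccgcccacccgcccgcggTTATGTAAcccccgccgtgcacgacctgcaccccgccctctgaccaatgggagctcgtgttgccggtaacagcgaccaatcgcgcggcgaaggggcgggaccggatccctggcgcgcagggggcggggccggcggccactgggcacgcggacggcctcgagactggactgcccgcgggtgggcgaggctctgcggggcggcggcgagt
Dbp: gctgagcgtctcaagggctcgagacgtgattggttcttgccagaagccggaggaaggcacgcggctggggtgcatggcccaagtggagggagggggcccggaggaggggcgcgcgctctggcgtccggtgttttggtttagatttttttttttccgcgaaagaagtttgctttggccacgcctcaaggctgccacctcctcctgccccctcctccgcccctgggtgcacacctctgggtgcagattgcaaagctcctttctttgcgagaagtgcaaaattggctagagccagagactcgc
In the Per1 window the capitals mark the E-box CACGTG at base 85 of the window and the D-box TTATGCAA at base 227. In the Cry1 window they mark the E-prime box AACGTG (the reverse strand of CACGTT) at base 172 and an E-box at base 191. The Per3 window held the D-box TTATGTAA at bases 46 and 93, and the Nr1d2 and Dbp windows held none of the motifs.

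The motifs searched, on both strands, were the E-box CACGTG, the E-prime box CACGTT, the D-box TTATGTAA or TTATGCAA, the ROR and REV-ERB element TAGGTCA and the cyclic AMP element TGACGTCA. None of these letter strings contains another. Over all 32851 promoter windows of the table, 7.15% held the E-box, 4.68% the E-prime box, 1.66% the D-box, 2.61% the ROR and REV-ERB element and 1.79% the cyclic AMP element. Among the members, Cry2 also held an E-prime box, at base 85, and 1 of the Arntl windows, chr7:113207261-113207560 on the plus strand, held the ROR and REV-ERB element at base 281. The cyclic AMP element was in none of the 13 windows, and the windows of Npas2 and Clock held no motif. A match is a string of letters and no sign of binding, and a window without one says only that these letters are not in it.

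The clock genes did not move as 1 block. Per1, Nr1d2, Cry1 and Cry2 were lower in ST2KO than in either wild-type group. Npas2, Dbp, Per3 and Clock were higher. Per2 and Arntl differed little between ST2KO and ST2-low. With edgeR's quasi-likelihood test, adjusted by Benjamini-Hochberg over all 12219 genes at 0.05, ST2KO against ST2-low had 4 members called higher, 4 lower and 2 not called, where 33.0% of all tested genes were called higher and 29.3% lower. Against ST2-high, 5 were called higher, 4 lower and 1 not called, with 31.9% and 32.6% of all genes called higher and lower. Between ST2-high and ST2-low, 1 was called higher, 2 lower and 7 not called, and the shares of all genes were 15.3% and 10.8%. The members' median log2 fold change was 0.05 in ST2KO against ST2-low, 0.09 in ST2KO against ST2-high and -0.07 in ST2-high against ST2-low, and the medians over all tested genes were 0.05, 0.02 and -0.00. Since the members were chosen on these contrasts, nothing is read from these counts. The 2 comparisons with ST2KO share the ST2KO libraries.

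**Figure D1:**
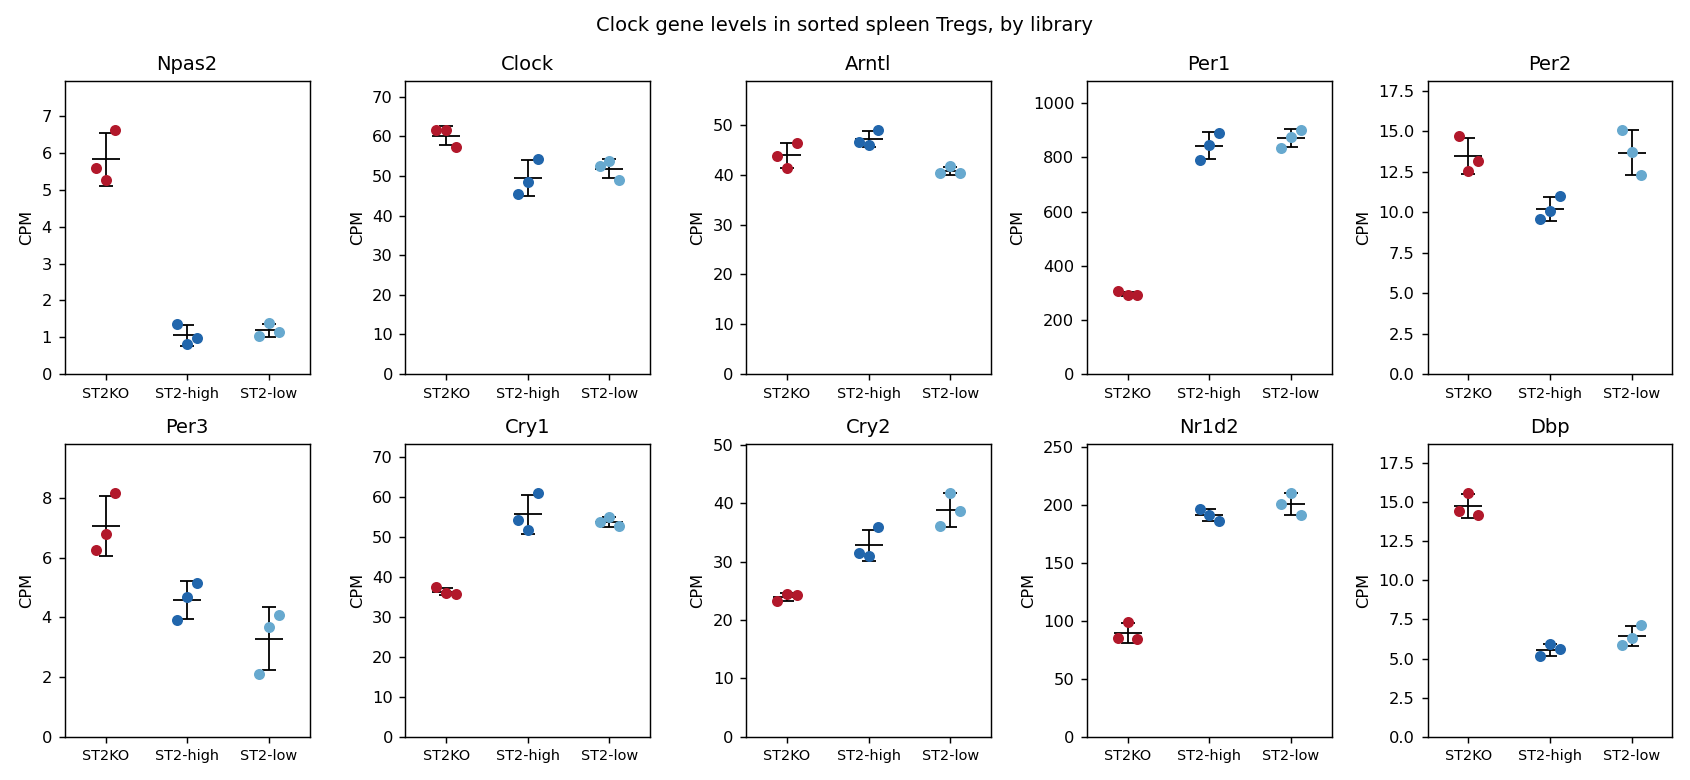
Level of each of the 10 clock genes in CPM in the 9 libraries. Points are single libraries and bars are the mean ± SD (n = 3) of ST2KO, ST2-high and ST2-low, left to right; Per1 lies between 291 and 305 CPM in ST2KO and between 791 and 902 CPM in the wild-type libraries.

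The activator genes came apart. Npas2, the relative of Clock that can take its place beside ARNTL, was at 5.60, 5.26 and 6.63 CPM in ST2KO, 1.36, 0.812 and 0.989 CPM in ST2-high and 1.03, 1.38 and 1.16 CPM in ST2-low. All ST2KO libraries were above all wild-type libraries, with no overlap. It was 4.86-fold higher in ST2KO than in ST2-low (log2 fold change 2.28 ± 0.25, SE) and 5.28-fold higher than in ST2-high (2.40 ± 0.25), the largest change of any member. Of all tested genes, 1.94% changed at least as much against ST2-low. Npas2 was a low-count gene, with 258, 90 and 81 counts in ST2KO, 39, 14 and 15 in ST2-high and 19, 25 and 23 in ST2-low. The wild-type groups overlapped, at 1.05 ± 0.280 CPM in ST2-high and 1.19 ± 0.178 CPM in ST2-low.

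Clock, which codes for the usual partner of ARNTL, was at 61.6, 61.5 and 57.4 CPM in ST2KO, 45.5, 48.4 and 54.4 CPM in ST2-high and 52.6, 53.8 and 49.1 CPM in ST2-low. The ST2KO libraries were again above all others, but by little. The difference was 1.16-fold against ST2-low (log2 fold change 0.22 ± 0.07) and 1.23-fold against ST2-high (0.29 ± 0.07). The call against ST2-low was lost without ST2-low replicate 3, where the log2 fold change was 0.18. Npas2 thus stood at 9.73 ± 1.60 counts per 100 counts of Clock in ST2KO, 2.16 ± 0.719 in ST2-high and 2.29 ± 0.311 in ST2-low, a ratio taken within each library that scaling between libraries cannot move.

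Arntl, the partner that CLOCK and NPAS2 share, was at 43.8, 41.4 and 46.4 CPM in ST2KO, 46.5, 45.9 and 49.0 CPM in ST2-high and 40.3, 41.6 and 40.3 CPM in ST2-low. ST2KO overlapped both wild-type groups and was called in neither comparison, with log2 fold changes of 0.10 ± 0.07 against ST2-low and -0.11 ± 0.07 against ST2-high. The wild-type groups did not overlap, and ST2-high was 1.16-fold above ST2-low (0.21 ± 0.07). That call was lost without ST2-low replicate 1 (log2 fold change 0.20), ST2-low replicate 3 (0.20) or ST2-high replicate 3 (0.18), with DESeq2's Wald test (0.19), and after thinning all libraries to the shallowest (0.14).

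Among the repressor genes, Per1 had by far the most transcript and the widest gap in CPM. It was at 305, 293 and 291 CPM in ST2KO, 791, 846 and 890.4 CPM in ST2-high and 836, 875 and 902 CPM in ST2-low. The ST2KO libraries lay within a narrow band below all 6 wild-type libraries. Per1 was 2.94-fold lower in ST2KO than in ST2-low (log2 fold change -1.55 ± 0.05) and 2.84-fold lower than in ST2-high (-1.51 ± 0.05), and 5.62% of tested genes changed at least as much against ST2-low. ST2-high and ST2-low overlapped, at 842 ± 49.9 CPM in ST2-high and 871 ± 33.1 CPM in ST2-low. The promoter window printed for Per1 is the one with the E-box and the D-box.

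Per2, the paralog of Per1 in the same repressor complex, followed another pattern. It was at 14.7, 12.5 and 13.2 CPM in ST2KO, 9.56, 10.1 and 11.0 CPM in ST2-high and 15.1, 13.7 and 12.3 CPM in ST2-low. ST2KO and ST2-low overlapped (log2 fold change -0.01 ± 0.12), and ST2-high was below both without overlap. ST2KO was 1.34-fold above ST2-high (0.42 ± 0.12), and ST2-high was 1.34-fold below ST2-low (-0.43 ± 0.12). The call between the wild-type groups was lost without ST2-low replicate 1 (log2 fold change -0.35) or without ST2-high replicate 1 (-0.38).

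Per3, the third Period gene, was at 6.25, 6.78 and 8.18 CPM in ST2KO, 3.91, 4.70 and 5.14 CPM in ST2-high and 2.11, 3.70 and 4.07 CPM in ST2-low. ST2KO was above both wild-type groups without overlap, 2.10-fold against ST2-low (log2 fold change 1.07 ± 0.21) and 1.54-fold against ST2-high (0.62 ± 0.20). The change against ST2-high was not called without ST2-high replicate 1 (0.47) or after thinning (0.41). The wild-type groups overlapped and were not called apart (0.45 ± 0.21). Counts of Per3 per 100 counts of Per1 were 2.39 ± 0.389 in ST2KO, 0.542 ± 0.0433 in ST2-high and 0.375 ± 0.108 in ST2-low, so the make-up of the Period transcripts differed between ST2KO and the wild-type groups while Per1 stayed the most abundant.

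Cry1 and Cry2 code for the cryptochromes, which bind the activator pair together with the PER proteins. Cry1 was at 37.3, 35.9 and 35.7 CPM in ST2KO, 54.1, 51.8 and 61.0 CPM in ST2-high and 53.6, 55.0 and 52.6 CPM in ST2-low. All ST2KO libraries were lower than all wild-type libraries, 1.48-fold against ST2-low (log2 fold change -0.56 ± 0.07) and 1.52-fold against ST2-high (-0.61 ± 0.07), and the wild-type groups overlapped (0.05 ± 0.07). Cry2 was at 23.2, 24.4 and 24.3 CPM in ST2KO, 31.5, 31.0 and 35.9 CPM in ST2-high and 36.0, 41.8 and 38.6 CPM in ST2-low. Here the 3 groups were ordered without overlap, ST2KO lowest and ST2-low highest. Cry2 was 1.62-fold lower in ST2KO than in ST2-low (-0.70 ± 0.08), 1.37-fold lower than in ST2-high (-0.45 ± 0.08), and 1.19-fold lower in ST2-high than in ST2-low (-0.25 ± 0.08). The last call was lost without ST2-low replicate 2 (log2 fold change -0.20) or 3 (-0.25), without ST2-high replicate 1 (-0.22) or 2 (-0.21), or after thinning (-0.21). Counts of Cry1 per 100 counts of Cry2 were 151 ± 8.03 in ST2KO, 169.8 ± 2.39 in ST2-high and 139 ± 8.90 in ST2-low, so the balance of the cryptochrome genes shifted less than that of the Period genes.

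Nr1d2, which codes for REV-ERB beta, a repressor of Arntl, was at 84.9, 99.1 and 84.3 CPM in ST2KO, 197, 192 and 186 CPM in ST2-high and 201, 211 and 191 CPM in ST2-low. The groups ST2KO and wild type did not overlap. Nr1d2 was 2.25-fold lower in ST2KO than in ST2-low (log2 fold change -1.17 ± 0.06) and 2.14-fold lower than in ST2-high (-1.10 ± 0.06), while ST2-high and ST2-low overlapped (-0.07 ± 0.06). Arntl, its target gene, was not called in either comparison with ST2KO. Counts of Arntl per 100 counts of Nr1d2 were 49.5 ± 6.90 in ST2KO, 24.6 ± 1.48 in ST2-high and 20.3 ± 0.691 in ST2-low.

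Dbp, a D-box activator whose own gene is a direct target of the CLOCK and ARNTL pair in mouse, went the other way from Per1. It was at 14.5, 15.6 and 14.2 CPM in ST2KO, 5.16, 5.91 and 5.60 CPM in ST2-high and 5.89, 6.34 and 7.14 CPM in ST2-low. All ST2KO libraries were at 14.2 CPM or more and no wild-type library was above 7.14 CPM. Dbp was 2.28-fold higher in ST2KO than in ST2-low (log2 fold change 1.19 ± 0.13) and 2.67-fold higher than in ST2-high (1.41 ± 0.13), and the wild-type groups overlapped (-0.23 ± 0.15). The exons of Dbp share 539 bases, 18.0% of their length, with exons of Sphk2 on the opposite strand. Sphk2 was at 40.0 CPM in ST2KO, 30.6 CPM in ST2-high and 32.2 CPM in ST2-low, and with no strand setting given for the counting, reads from the shared stretch cannot be assigned to either gene.

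**Figure D2:**
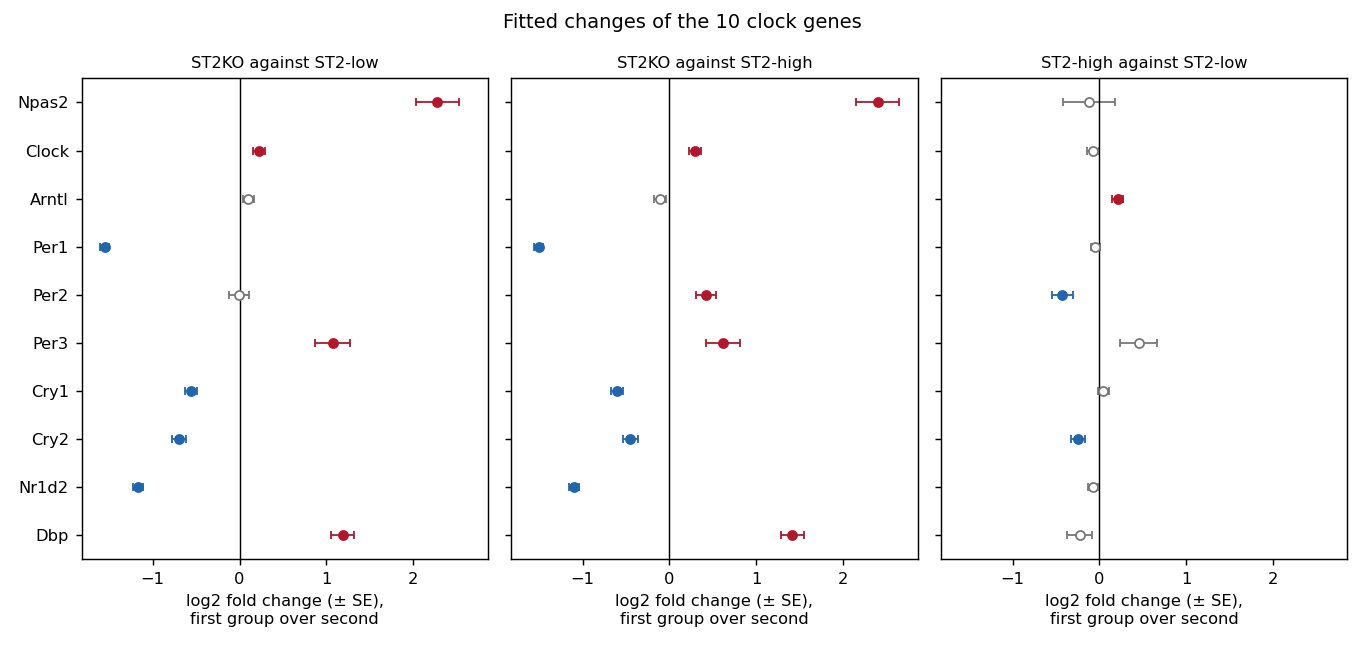
Log2 fold change (± SE) of each clock gene in ST2KO against ST2-low, ST2KO against ST2-high and ST2-high against ST2-low, on a shared axis. Red points were called higher and blue points lower at an edgeR adjusted p under 0.05, and open grey points were not called; Npas2 reaches 2.40 and Per1 -1.55, while the widest change between the wild-type groups is that of Per3, at 0.45.

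Set against each other within a library, genes that were lower and genes that were higher in ST2KO separated the groups widely. Such a separation follows from the changes given above and is no further result. Dbp stood at 4.74, 5.33 and 4.87 counts per 100 counts of Per1 in ST2KO, 0.653, 0.699 and 0.629 in ST2-high and 0.705, 0.725 and 0.792 in ST2-low. No ST2KO library came near a wild-type one. Counts of Dbp per 100 counts of Nr1d2 were 16.5 ± 0.688 in ST2KO, 2.91 ± 0.249 in ST2-high and 3.22 ± 0.441 in ST2-low. Nr1d2 and Per1, which were both lower in ST2KO, kept closer to each other. Counts of Nr1d2 per 100 counts of Per1 were 30.2 ± 3.20 in ST2KO, 22.8 ± 2.01 in ST2-high and 23.1 ± 1.65 in ST2-low. Tef codes for a D-box activator of the same family as Dbp. Counts of Dbp per 100 counts of Tef were 37.2 ± 2.45 in ST2KO, 15.8 ± 0.485 in ST2-high and 16.1 ± 0.795 in ST2-low, and Tef itself was at 39.7 ± 3.52 CPM in ST2KO, 35.2 ± 1.51 CPM in ST2-high and 40.1 ± 2.04 CPM in ST2-low. The separation in Dbp was therefore not shared by Tef. Counts of Arntl per 100 counts of Clock were 73.1 ± 7.02 in ST2KO, 95.7 ± 6.08 in ST2-high and 78.7 ± 2.97 in ST2-low.

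**Figure D3:**
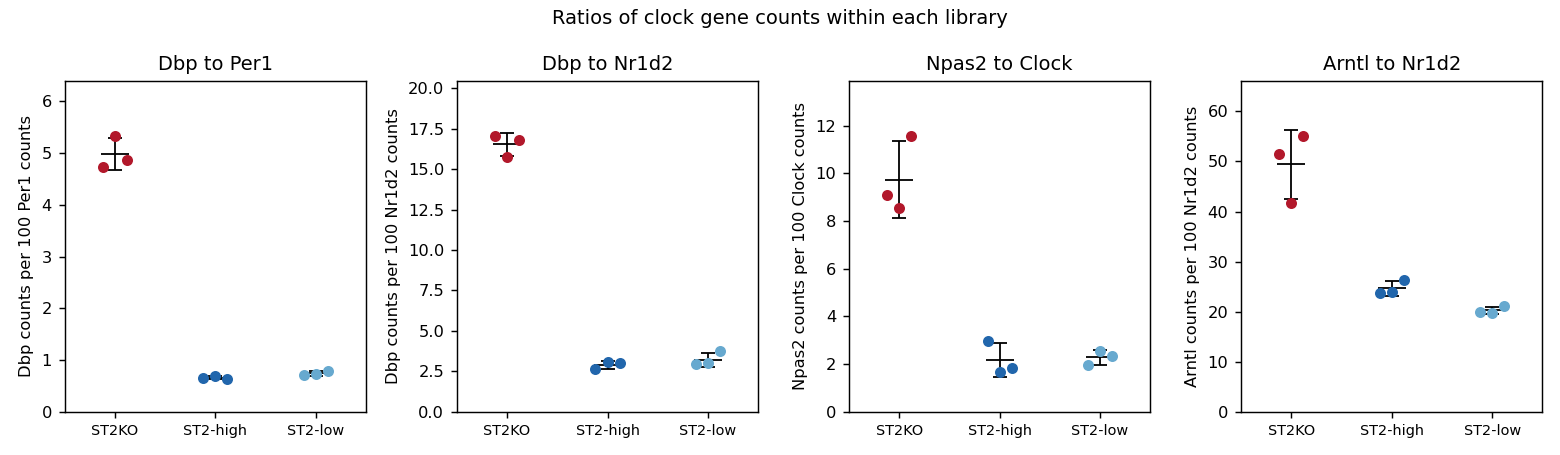
Ratios of clock gene counts within each library, as counts of the first gene per 100 counts of the second, on linear axes from 0. Points are the 3 libraries and bars the mean ± SD of ST2KO, ST2-high and ST2-low, left to right; Dbp per 100 Per1 is between 4.74 and 5.33 in ST2KO and between 0.629 and 0.792 in the wild-type libraries.

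Levels of different genes can be compared only per length. Divided by the length of the merged exons in the GENCODE M21 annotation, Per1 had the highest level of the 10 in every group, at 52.6 in ST2KO, 149.6 in ST2-high and 155 in ST2-low (CPM per kb). Nr1d2 came next, at 16.5 in ST2KO, 35.4 in ST2-high and 37.2 in ST2-low, followed by Cry1, at 10.9 in ST2KO, 16.7 in ST2-high and 16.1 in ST2-low. The middle of the order held Arntl, at 5.83 in ST2KO, 6.27 in ST2-high and 5.41 in ST2-low, Cry2, at 3.80 in ST2KO, 5.18 in ST2-high and 6.14 in ST2-low, and Clock, at 4.38 in ST2KO, 3.60 in ST2-high and 3.77 in ST2-low. Dbp was at 4.93 in ST2KO, 1.86 in ST2-high and 2.16 in ST2-low and so moved past Clock and Cry2 in ST2KO, but lay below both in each wild-type group. Per2 was at 2.30 in ST2KO, 1.74 in ST2-high and 2.33 in ST2-low. Dbp and Per2 differed by less than 1 SD of either in both wild-type groups. Npas2 and Per3 were lowest, Npas2 at 1.22 in ST2KO, 0.220 in ST2-high and 0.248 in ST2-low and Per3 at 0.736 in ST2KO, 0.477 in ST2-high and 0.343 in ST2-low, and Npas2 was above Per3 in ST2KO and below it in both wild-type groups. In ST2-low the gap between them was below the SD of Per3, 0.108; the other neighbours in these orders lay apart by more than the SD of either.

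Many other genes shared the group pattern of the abundant members. By Pearson's r of log2 CPM over the 9 libraries, the genes most like Per1 were Arhgef10 (0.999), Snx18 (0.998) and Ets2 (0.998), those most like Nr1d2 were Dusp16, Twsg1 and Nup50 (0.997, 0.997 and 0.996), and those most like Clock were A430088P11Rik, Ric8b and Spopl (0.988, 0.986 and 0.971). The libraries fall into 3 groups, so these values mostly describe the gap between groups. A correlation above 0.95 was reached by 1019 genes with Per1, 914 with Nr1d2 and 23 with Clock.

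To place the members, 50 further genes of the clock, its regulators, its inputs and its outputs were listed by their known roles. These lists were drawn up with earlier results of these data known. Beyond the loop and D-box partners, the genes named are mainly those with the smallest adjusted p of their list. Their counts and p-values are therefore a description and no independent check. All 50 had a row, Ciart under its older symbol Gm129, and 47 passed the filter on low counts; Arntl2, Rorb and Prkaa2 did not. In ST2KO against ST2-low, 9 of the 47 were higher, 25 lower and 13 not called, with a median log2 fold change of -0.30. Against ST2-high, 10 were higher, 26 lower and 11 not called, with a median of -0.22. Between ST2-high and ST2-low, 13 were higher, 6 lower and 28 not called, with a median of 0.01; DESeq2's Wald test gave 12 higher and 9 lower in that comparison. Fbxl21 is among the genes counted higher in ST2KO in both comparisons, though it passed the filter on low counts through ST2KO, where it was highest. The shares of all tested genes called higher and lower were 33.0% and 29.3% in ST2KO against ST2-low and 31.9% and 32.6% against ST2-high. Between ST2-high and ST2-low they were 15.3% and 10.8%. Medians over all tested genes were 0.05, 0.02 and -0.00 in these comparisons, in that order. All adjusted p-values below come from the edgeR fit over the 12219 genes.

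Of the 11 tested partners in the loop and the D-box arm, 0 rose and 4 fell in ST2KO against ST2-low, 3 rose and 6 fell against ST2-high, and 5 rose and 0 fell in ST2-high against ST2-low. The shares of all tested genes called higher and lower were 33.0% and 29.3%, 31.9% and 32.6%, and 15.3% and 10.8% in these comparisons. Rora, which codes for a receptor that activates Arntl and competes with REV-ERB, was at 28.8 ± 2.02 CPM in ST2KO, 203 ± 19.1 CPM in ST2-high and 86.7 ± 0.109 CPM in ST2-low. The 3 groups did not overlap, and ST2KO was 3.05-fold below ST2-low (edgeR adjusted p = 2.02e-18) and 7.15-fold below ST2-high (1.90e-24), while ST2-high was 2.34-fold above ST2-low (1.28e-15). Nfil3, the D-box repressor that opposes DBP, was at 72.5 ± 7.54 CPM in ST2KO, 192 ± 9.49 CPM in ST2-high and 144 ± 3.88 CPM in ST2-low. It fell 2.0-fold in ST2KO against ST2-low (adjusted p by edgeR = 2.07e-14) and 2.68-fold against ST2-high (3.90e-18), and rose 1.34-fold in ST2-high against ST2-low (2.69e-06). Dbp and Nfil3, which act on the same element in opposite ways, thus differed in opposite directions between ST2KO and each wild-type group.

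Bhlhe40 and Bhlhe41 code for the repressors DEC1 and DEC2, which bind E-boxes. Bhlhe40 was at 172 ± 28.3 CPM in ST2KO, 658 ± 21.0 CPM in ST2-high and 406 ± 17.6 CPM in ST2-low, and fell 2.37-fold in ST2KO against ST2-low and 3.85-fold against ST2-high (edgeR adjusted p = 7.73e-09 and 3.54e-11). It rose 1.62-fold in ST2-high against ST2-low (edgeR adjusted p = 1.70e-05). Bhlhe41 was at 3.14 ± 1.25 CPM in ST2KO, 11.6 ± 0.984 CPM in ST2-high and 11.2 ± 0.101 CPM in ST2-low, and fell 3.84-fold and 4.0-fold in ST2KO against ST2-low and ST2-high (edgeR adjusted p = 9.56e-11 and 4.07e-11). It was not called between the wild-type groups (edgeR adjusted p = 0.829).

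Hlf, the third D-box activator beside Dbp and Tef, was at 2.66 ± 0.605 CPM in ST2KO, 14.3 ± 2.04 CPM in ST2-high and 3.10 ± 0.813 CPM in ST2-low. It rose 4.60-fold in ST2-high against ST2-low (edgeR adjusted p = 9.10e-11) and fell 5.11-fold in ST2KO against ST2-high (2.60e-12), with ST2KO and ST2-low not called apart (0.547). The D-box activators thus had 3 patterns: Dbp was highest in ST2KO, Hlf in ST2-high, and Tef was nearly level. Tef passed only against ST2-high, with a log2 fold change of 0.19 (edgeR adjusted p = 0.0297). Without ST2KO replicate 1 or 2, ST2-high replicate 1 or 3, or ST2-low replicate 2, that change was between 0.13 and 0.16 and was not called, nor was it called with DESeq2's Wald test or after thinning to the shallowest library (0.17 in both). In ST2-high against ST2-low, Tef was not called, but it was called lower without ST2KO replicate 3 (log2 fold change -0.19) and with DESeq2 size factors, DESeq2's Wald test or the filter of 5 CPM (-0.22 in each).

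Nr1d1, the REV-ERB alpha gene and close paralog of Nr1d2, was low, at 4.39 ± 1.25 CPM in ST2KO, 5.40 ± 0.693 CPM in ST2-high and 5.85 ± 1.02 CPM in ST2-low, and was called in none of the 3 comparisons (edgeR adjusted p = 0.109, 0.258 and 0.752 for ST2KO against ST2-low, ST2KO against ST2-high and ST2-high against ST2-low). Its exons share 263 bases, 8.55% of their length, with Thra on the opposite strand, which was at 22.9 CPM in ST2KO, 11.5 CPM in ST2-high and 10.1 CPM in ST2-low. Ciart, a repressor of the activator pair, was at 6.40 ± 0.734 CPM in ST2KO, 3.59 ± 0.206 CPM in ST2-high and 5.02 ± 1.24 CPM in ST2-low, higher in ST2KO than in ST2-high (log2 fold change 0.81, edgeR adjusted p = 4.83e-04). It was not called in ST2KO against ST2-low (0.32) or in ST2-high against ST2-low (-0.49), but was called without ST2-low replicate 3 in the first (0.54) and without ST2-low replicate 2 (-0.61) or with the filter of 5 CPM (-0.52) in the second.

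Timeless, named for a fly clock gene and in mammals chiefly a replication fork protein, was at 21.0 ± 1.56 CPM in ST2KO, 21.2 ± 0.744 CPM in ST2-high and 19.8 ± 1.83 CPM in ST2-low and was called in no comparison (edgeR adjusted p = 0.428, 0.964 and 0.525 for ST2KO against ST2-low, ST2KO against ST2-high and ST2-high against ST2-low). Tipin, which codes for its partner, was at 8.81 ± 0.444 CPM in ST2KO, 12.2 ± 1.60 CPM in ST2-high and 8.09 ± 0.913 CPM in ST2-low. It rose in ST2-high against ST2-low (log2 fold change 0.58, edgeR adjusted p = 0.00148) and was lower in ST2KO than in ST2-high (-0.46, 0.00326).

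Post-translational regulators set the life of the PER and CRY proteins. Of the 13 tested, 4 rose and 7 fell in ST2KO against each wild-type group, and 1 rose and 1 fell in ST2-high against ST2-low. The 4 include Fbxl21, which passed the filter on low counts through ST2KO, where it was highest. Of all tested genes, 33.0% were called higher and 29.3% lower in ST2KO against ST2-low, and 31.9% and 32.6% against ST2-high. In ST2-high against ST2-low the shares were 15.3% and 10.8%. Csnk1e, which codes for a casein kinase that phosphorylates PER proteins, was at 11.0 ± 0.941 CPM in ST2KO, 27.3 ± 1.29 CPM in ST2-high and 29.8 ± 1.68 CPM in ST2-low, a fall of 2.66-fold in ST2KO against ST2-low and 2.44-fold against ST2-high (edgeR adjusted p = 6.66e-14 and 5.55e-13). Sirt1, which codes for a deacetylase that acts on clock proteins, was at 69.8 ± 5.55 CPM in ST2KO, 81.7 ± 2.88 CPM in ST2-high and 92.7 ± 4.61 CPM in ST2-low, with log2 fold changes of -0.40, -0.22 and -0.18 in ST2KO against ST2-low, ST2KO against ST2-high and ST2-high against ST2-low. All 3 passed. The second was not called with upper-quartile factors (-0.14), and the last was lost without ST2-low replicate 1 (-0.17), ST2-low replicate 2 (-0.16) or ST2-high replicate 1 (-0.16), or after thinning (-0.16).

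The 6 transcription cofactors listed changed little, with log2 fold changes between -0.36 and 0.37. In ST2KO, 1 rose and 3 fell against ST2-low, and 1 rose and 2 fell against ST2-high. In ST2-high against ST2-low, 0 rose and 1 fell. Beside these stand the shares of all tested genes called higher and lower, 33.0% and 29.3%, 31.9% and 32.6%, and 15.3% and 10.8% in the same order. Ep300 and Crebbp, which code for paralogous acetyltransferases that join the activator pair, went apart. Ep300 was at 465 ± 10.1 CPM in ST2KO, 360.3 ± 8.46 CPM in ST2-high and 389.9 ± 13.9 CPM in ST2-low, 1.19-fold higher in ST2KO against ST2-low and 1.29-fold higher than in ST2-high (edgeR adjusted p = 5.52e-05 and 1.66e-07). Crebbp was at 504 ± 14.1 CPM in ST2KO, 554 ± 33.7 CPM in ST2-high and 649 ± 14.7 CPM in ST2-low, 1.29-fold lower in ST2KO than in ST2-low (edgeR adjusted p = 5.18e-07). Against ST2-high the Crebbp change was -0.14 on the log2 scale, and -0.11 and not called without ST2KO replicate 3; it was -0.06 and not called with upper-quartile scaling. Hdac3, which codes for the deacetylase recruited by REV-ERB, was at 39.4 ± 0.519 CPM in ST2KO, 44.4 ± 2.06 CPM in ST2-high and 46.7 ± 2.67 CPM in ST2-low, and its change in ST2KO was -0.25 on the log2 scale against ST2-low, and -0.18 and not called after thinning. The change of -0.18 against ST2-high was -0.17 and not called both without ST2KO replicate 1 and without ST2-high replicate 1, and was not called with upper-quartile factors (-0.10) or after thinning (-0.07).

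Of 8 genes on the inputs that induce Per1, the CREB arm and the glucocorticoid receptor, 2 rose and 5 fell in ST2KO against ST2-low, 1 rose and 5 fell against ST2-high, and 2 rose and 2 fell in ST2-high against ST2-low. Among all tested genes, the shares called higher and lower were 33.0% and 29.3%, 31.9% and 32.6%, and 15.3% and 10.8% in these comparisons. Crem, which codes for cyclic AMP response factors including the inducible repressor ICER, was at 42.1 ± 5.91 CPM in ST2KO, 337 ± 6.48 CPM in ST2-high and 316 ± 10.1 CPM in ST2-low. It fell 7.64-fold in ST2KO against ST2-low (adjusted p by edgeR = 2.31e-23) and 8.14-fold against ST2-high (9.95e-24), and the wild-type groups were not called apart (0.305). Creb1, which codes for the CREB activator itself, was at 205 ± 3.43 CPM in ST2KO, 129 ± 3.59 CPM in ST2-high and 97.9 ± 2.87 CPM in ST2-low, and rose 2.09-fold and 1.59-fold in ST2KO against ST2-low and ST2-high (edgeR adjusted p = 1.81e-17 and 6.46e-13). It also rose 1.31-fold in ST2-high against ST2-low (edgeR adjusted p = 4.44e-07). Nr3c1, the glucocorticoid receptor gene, was at 355 ± 29.9 CPM in ST2KO, 636 ± 24.5 CPM in ST2-high and 485 ± 16.2 CPM in ST2-low, with falls of 1.37-fold and 1.79-fold in ST2KO against ST2-low and ST2-high (edgeR adjusted p = 4.29e-08 and 5.55e-14), and a rise of 1.31-fold in ST2-high against ST2-low (2.12e-06).

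Of 9 genes that are rhythmic in many tissues, 2 rose and 6 fell in ST2KO against ST2-low, 1 rose and 6 fell against ST2-high, and 5 rose and 2 fell in ST2-high against ST2-low. For all tested genes, the shares called higher and lower were 33.0% and 29.3%, 31.9% and 32.6%, and 15.3% and 10.8% in these comparisons. Nampt, the rate-limiting enzyme gene of NAD salvage and an E-box target, was at 70.5 ± 1.27 CPM in ST2KO, 174 ± 10.4 CPM in ST2-high and 157 ± 3.53 CPM in ST2-low. It fell 2.23-fold in ST2KO against ST2-low and 2.47-fold against ST2-high (edgeR adjusted p = 1.42e-17 and 5.30e-19). Its change of 0.15 on the log2 scale in ST2-high against ST2-low was called, but not without any 1 of the ST2-low replicates 1, 2 or 3 (0.15, 0.13 and 0.16), without ST2-high replicate 1 (0.12) or 2 (0.13), with DESeq2 size factors, DESeq2's Wald test or the filter of 5 CPM (0.12 in each), or after thinning (0.15). Cdkn1a, the p21 cell cycle inhibitor gene, was at 8.86 ± 2.03 CPM in ST2KO, 59.0 ± 1.55 CPM in ST2-high and 43.5 ± 1.66 CPM in ST2-low, with falls in ST2KO of 5.24-fold and 7.12-fold against ST2-low and ST2-high (edgeR adjusted p = 1.35e-16 and 1.94e-18) and a rise of 1.36-fold in ST2-high against ST2-low (3.85e-04).

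Tsc22d3 and Fkbp5, both induced by glucocorticoids, went apart. Tsc22d3, which codes for GILZ, was at 247 ± 4.52 CPM in ST2KO, 288 ± 21.1 CPM in ST2-high and 396 ± 3.20 CPM in ST2-low, and fell 1.60-fold in ST2KO against ST2-low and 1.17-fold against ST2-high (edgeR adjusted p = 1.93e-12 and 4.74e-04). It was 1.37-fold lower in ST2-high than in ST2-low (edgeR adjusted p = 5.01e-08). Fkbp5, which codes for a co-chaperone of the receptor, was at 120.4 ± 9.18 CPM in ST2KO, 97.1 ± 6.64 CPM in ST2-high and 70.5 ± 4.35 CPM in ST2-low, and rose 1.70-fold and 1.24-fold in ST2KO against ST2-low and ST2-high (edgeR adjusted p = 1.54e-11 and 1.11e-04), and 1.38-fold in ST2-high against ST2-low (1.87e-06). This pair of glucocorticoid targets thus had no shared direction in ST2KO. Per1, which glucocorticoids also induce, was lower in ST2KO than in both wild-type groups. So was Klf9 of the rhythmic list, with log2 fold changes of -0.69 against ST2-low and -0.19 against ST2-high.

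**Figure D4:**
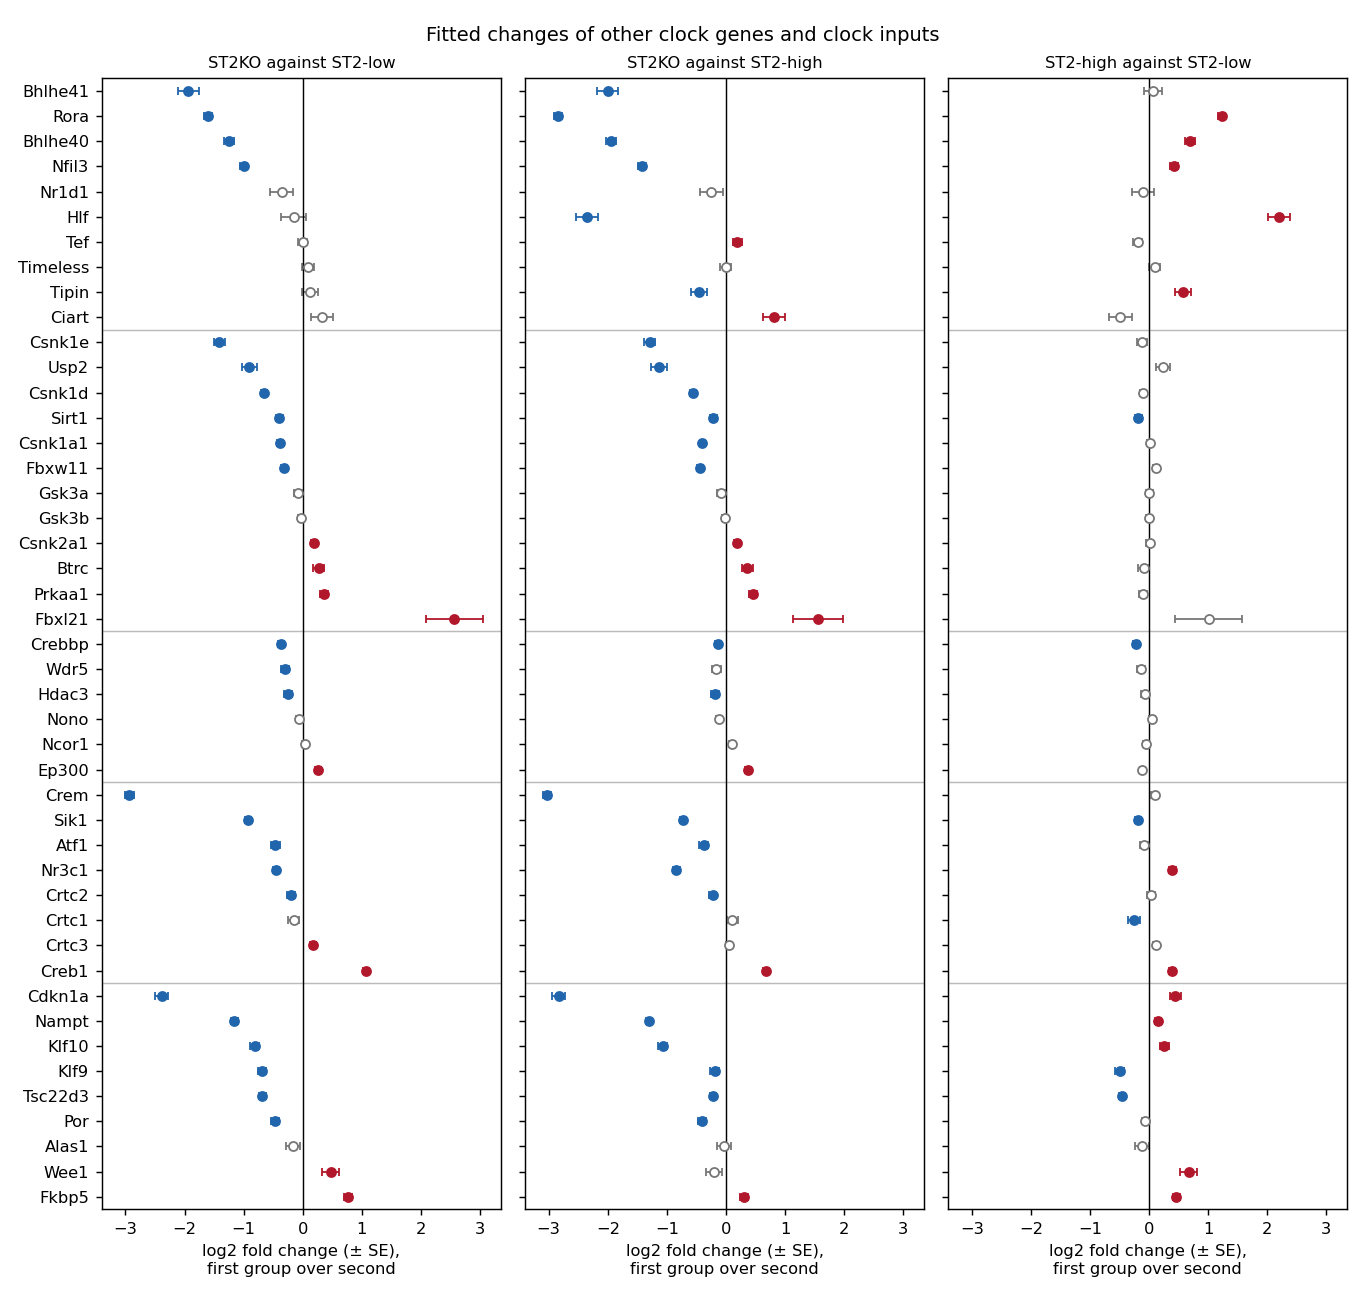
Log2 fold change (± SE) of further clock genes and clock inputs that were tested, in the same 3 comparisons. Grey lines part the 5 roles, from the top loop and D-box partners, post-translational regulators, transcription cofactors, CREB arm and glucocorticoid receptor, and rhythmic genes, each sorted by its change in ST2KO against ST2-low; red is higher and blue lower at an edgeR adjusted p under 0.05, open grey not called, and Crem lies at -2.93 and -3.03 in the comparisons with ST2KO.

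Genes known to respond to stress and handling of cells also differed by group. The 10 genes listed for stress and handling summed to 2980 to 3198 CPM in ST2KO, 3194 to 3507 CPM in ST2-high and 3238 to 3395 CPM in ST2-low; some were higher and some lower in ST2KO. Fos was at 396 CPM in ST2KO, 359 CPM in ST2-high and 377 CPM in ST2-low, but ST2KO replicate 3, at 349 CPM, lay below every wild-type library. Jun was at 326 CPM in ST2KO, 166 CPM in ST2-high and 248 CPM in ST2-low, and Egr1 at 130, 73.8 and 90.5 CPM. Junb and Fosb were lower in ST2KO. Junb was at 1568 CPM in ST2KO, 2265 CPM in ST2-high and 2186 CPM in ST2-low, and Fosb at 180, 293 and 225 CPM. All 4 heat shock genes of the list were higher in ST2KO than in both wild-type groups. Hsph1 was at 295 CPM in ST2KO, 69.1 CPM in ST2-high and 68.1 CPM in ST2-low, and Dnajb1 at 167 CPM in ST2KO, 90.7 CPM in ST2-high and 106 CPM in ST2-low. Hspa1b was at 24.6 CPM in ST2KO, 1.12 CPM in ST2-high and 1.35 CPM in ST2-low, and Hspa1a at 5.79 CPM in ST2KO, 0.518 CPM in ST2-high and 0.617 CPM in ST2-low, though reads of these near-identical copies may have been split between them. Atf3, induced by stress and by cyclic AMP, was at 5.85 CPM in ST2KO, 34.0 CPM in ST2-high and 23.0 CPM in ST2-low. Their part in the clock gene results was not tested.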

How the data were processed

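RNA of sorted spleen Tregs was sequenced in 9 libraries, 3 per group, grouped by the genotype labels. The deposited files hold whole-number counts per gene symbol, 1 file per library, as the values and the file headers show; the library kit, aligner, build, annotation, counter and strand setting were not given in the sources used here. Of 23420 rows, 27 named by a calendar date (0.182 to 0.206% of counts) were left out. The ribosomal precursor Rn45s took 12.1 to 16.9% of counts.

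Genes passing filterByExpr (minimum count 10, minimum total 15) were scaled by TMM and tested with edgeR 4.0.16 (limma 3.58.1, R 4.3.3), using robust glmQLFit on all 9 libraries with 1 coefficient per group, glmQLFTest and Benjamini-Hochberg adjustment over 12219 genes at 0.05. An SE is the absolute log2 fold change over the square root of F. The steps were run on simulated data in which only a small share of genes changed. Far more genes were called in the comparisons with ST2KO, so that run does not test the scaling between groups. Motifs, ratios and figures were made with Python 3.11.15. The members and all lists were chosen with earlier results of these data known.

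All members were named, and of 5 lists of other genes the 2 with the smallest adjusted p in each comparison plus every gene of the first list; some of these are left out here. Alternatives were DESeq2 1.42.0 (its size factors, and its Wald test), upper-quartile factors, voom with limma, no filter, 5 CPM in 3 libraries, a replicate block, only the 6 libraries compared, each library left out, no Rn45s row, and thinning to the shallowest library. Each library was counted once. Replicates of a group differed beyond sampling noise, which cannot show that they came from separate animals.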

Additional observations from a re-analysis of the deposited data

How the results depend on the processing

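No member and no other named gene changed sign among those called, under 19 alternatives. Over 10 members and 3 comparisons, 553 of 570 recomputed values kept their side of the threshold, 15 fell short of it and 2 newly passed; for the other named genes it was 1327 of 1368, with 28 and 13. The number of members called stayed between 7 and 9 in ST2KO against ST2-low and between 8 and 9 in ST2KO against ST2-high. In ST2-high against ST2-low it was 3, and leaving out 1 library gave 1 to 3, with 1 without ST2-low replicate 1, ST2-low replicate 3 or ST2-high replicate 1. Arntl passed in ST2KO against ST2-low with upper-quartile factors (0.17). Arntl did not pass in ST2-high against ST2-low with DESeq2's Wald test (0.19). Thinning to the shallowest library lost Per3 in ST2KO against ST2-high (0.41) and gained it in ST2-high against ST2-low (0.76). The other clock genes called higher and lower in ST2-high against ST2-low were 13 and 6, 12 and 9 with DESeq2's Wald test and 12 and 10 with the filter of 5 CPM, under which all genes split 1456 higher and 1666 lower instead of 1872 and 1317. The causes were not tested. The split of all genes in ST2KO against ST2-low was 4030 higher and 3577 lower, 4648 and 3124 with upper-quartile factors and 3729 and 3829 with DESeq2 size factors. In ST2KO against ST2-high it was 3892 and 3984, 4582 and 3443 with upper-quartile factors and 3793 and 4075 with DESeq2 size factors. Other scalings moved the median of all genes by at most 0.08 (log2).

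The labels do not say whether the replicate numbers pair the libraries, and correlations over 3 libraries a group cannot exclude a pairing. Deviations of libraries with the same number correlated between -0.0626 and 0.0984, and those with different numbers between -0.114 and 0.0732; 3 of 9 libraries correlated best with their own number. With the replicate number as a block, 8, 9 and 3 members were called, and 7622, 7885 and 3210 genes in all, against 7607, 7876 and 3189 without it, in ST2KO against ST2-low, ST2KO against ST2-high and ST2-high against ST2-low. Nr1d1 was called in ST2KO against ST2-low with the block only (-0.41, edgeR adjusted p = 0.0487).

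At the depth of the shallowest library, the calls of Arntl and Cry2 between the wild-type groups were lost too. With 3 libraries a group, every SE rests on few samples.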

Other observations

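A few further regulators, chosen after their values were seen, are given as a description only, without p-values. Fbxl21, which codes for a ubiquitin ligase subunit that binds cryptochromes, was at 1.40 ± 0.0744 CPM in ST2KO, 0.450 ± 0.115 CPM in ST2-high and 0.227 ± 0.122 CPM in ST2-low. It had 61, 24 and 18 counts in ST2KO, 16, 8 and 5 in ST2-high and 2, 4 and 7 in ST2-low. Its p-values are not given, since it passed the filter on low counts through ST2KO, where it was highest. Usp2, which codes for a deubiquitinase that acts on clock proteins, was at 6.55 ± 0.642 CPM in ST2KO, 14.7 ± 1.07 CPM in ST2-high and 12.5 ± 1.54 CPM in ST2-low, and fell in ST2KO against ST2-low and ST2-high (log2 fold change -0.90 and -1.13). Btrc (0.27 and 0.36) and Prkaa1 (0.36 and 0.46), also post-translational regulators, rose in the same comparisons. Sik1, which codes for a cyclic AMP induced kinase that restrains the CREB coactivators, was at 746 ± 27.1 CPM in ST2KO, 1238 ± 68.9 CPM in ST2-high and 1418 ± 54.6 CPM in ST2-low, and fell in both comparisons, as Usp2 did (-0.93 and -0.73).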
